A study of Mus musculus with 58 samples.

Results

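The comparison described here asked whether the human APOE isoform that a mouse carries changes its transcriptional response to traumatic brain injury (TBI) when only 1 functional copy of Abca1 is present. Its members were chosen by genotype and treatment labels alone: 28 of the 58 mice of the study, labelled APOE3het or APOE4het and Sham or TBI. All 28 were C57BL/6 targeted replacement mice, in which human APOE stands in place of the mouse gene, and all lacked 1 functional copy of Abca1, the shams included (E3/Abca1+/- and E4/Abca1+/-). At 3 months of age the injured mice received a controlled cortical impact over the left hemisphere, and the sham mice received the anesthesia and craniotomy without the impact. Hippocampus and cortex around the injury site were frozen together 14 days later, after the subcortical tissue had been dissected away, and total gene expression was measured by RNA-seq in 1 library per mouse. There were 7 sham E3/Abca1+/- mice (4 male, 3 female), 6 injured E3/Abca1+/- mice (3 male, 3 female), 7 sham E4/Abca1+/- mice (3 male, 4 female) and 8 injured E4/Abca1+/- mice (4 male, 4 female). The quantity of interest was the interaction, the TBI minus sham difference on the log2 scale in E4/Abca1+/- mice minus the same difference in E3/Abca1+/- mice, so that a positive value means a higher TBI minus sham value in E4/Abca1+/- mice.

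APOE is the main lipid carrier protein of the brain. It is made mostly by astrocytes and, after injury, also by microglia, the resident phagocytes of brain tissue. ABCA1 is a membrane transporter that loads cholesterol and phospholipid onto APOE, and mice with less ABCA1 have APOE particles that carry less lipid. After a cortical impact, microglia and astrocytes around the lesion take on reactive states, with raised expression of complement, lysosomal and antigen presentation genes.

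The libraries held 5471936 to 37877346 counts in genes, with group medians of 22835554 and 19011838 in sham and injured E3/Abca1+/- mice and 20511272 and 15116304 in sham and injured E4/Abca1+/- mice. The table lists 15171 genes, of which 15162 passed the filter on low counts and were tested. Levels are given as counts-per-million (CPM), and 3 counts correspond to 0.0792 CPM in the deepest library and to 0.548 CPM in the shallowest, limits that cover counting error only. Abca1 itself had sham medians of 35.4 CPM in both E3/Abca1+/- and E4/Abca1+/- mice, against 47.8 and 49.0 CPM in sham E3 and E4 mice with 2 copies (these levels, and those of mice with 2 copies given later, are scaled over all 58 mice, the others over the 28), with ranges of 29.0 to 42.4 CPM and 33.7 to 60.7 CPM. The reads assigned to Apoe do not check the isoform label, since they were assigned to the gene of the mouse reference.

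Of the 28 mice, 3 stood apart, all of them E4/Abca1+/- mice and picked after seeing the data. The injured E4/Abca1+/- replicate 8, a female, had a summed level of thalamus and subcortex markers of 766 CPM, against at most 276 CPM in the other mice of its group, with the lowest hippocampal marker sum of its group (460 CPM) and the highest cortical one (1060 CPM). The injured E4/Abca1+/- replicate 6, a male with the deepest library, had a summed level of B and plasma cell markers of 354 CPM, against at most 40.6 CPM in the rest of its group. The sham E4/Abca1+/- replicate 2 had 16.3 CPM of the acute phase gene Lcn2, in a group with a median of 0.423 CPM. Results are given with all 28 mice, and for the main counts also without these 3. The E3/Abca1+/- mice flagged further below were not left out together with them. Values without the 3 mice therefore rest on a removal within E4/Abca1+/- mice only.

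No gene passed an adjusted p of 0.05 for the interaction in edgeR's quasi-likelihood test (0% of 15162 genes in either direction), and the smallest adjusted p was 0.21, for Stra13. At an unadjusted p under 0.05 there were 611 genes with a higher (4.03%) and 350 genes with a lower (2.31%) TBI minus sham value in E4/Abca1+/- mice, so that 63.6% of these lay on the higher side. With the size factors of DESeq2 in edgeR that split was 539 higher and 447 lower, with no gene called and a smallest adjusted p of 0.236. The Wald test of DESeq2 gave 533 higher and 468 lower, and called 3 genes, each with an adjusted p of 0.0482: Stra13 and Spsb2 higher (0.0132%) and Serpina3n lower (0.0066%). The limma voom fit with sample weights called none, with 860 genes higher and 552 lower at an unadjusted p under 0.05. Without the 3 mice that stood apart, edgeR again called none, with 812 and 684 genes at an unadjusted p under 0.05 and a smallest adjusted p of 0.108. These unadjusted counts moved with single mice, to 383 higher without sham E3/Abca1+/- replicate 2 and to between 539 and 676 lower without injured E3/Abca1+/- replicate 1, sham E4/Abca1+/- replicate 1 or 2, or injured E4/Abca1+/- replicate 3, 4, 6, 7 or 8. Single genes named below therefore did not pass the interaction test in edgeR unless said otherwise, and their interaction values are given with standard errors (SE) as measurements.

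Within each genotype the injury changed a large share of the genes (edgeR, adjusted p of 0.05). E4/Abca1+/- mice had 3031 genes that rose (20%) and 16.9% that fell, and E3/Abca1+/- mice had 1827 that rose (12%) and 1433 that fell (9.45%). Of the genes that rose in E4/Abca1+/- mice 55.7% also rose in E3/Abca1+/- mice, and of those that rose in E3/Abca1+/- mice 92.3% also rose in E4/Abca1+/- mice. No gene passed the test in opposite directions in the 2 genotypes. Across genes the 2 responses, which come from separate mice, had Pearson's r = 0.897 and Spearman's rho = 0.782, a description over genes that share libraries and are not independent. Groups here differ in size, 15 mice against 13, and the difference between the genotypes in the number of calls was not itself tested. Compared directly within a treatment, 415 genes were higher (2.74%) and 348 lower (2.3%) in E4/Abca1+/- than in E3/Abca1+/- shams, and 557 were higher (3.67%) and 331 lower (2.18%) among injured mice.

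**Figure D1:**
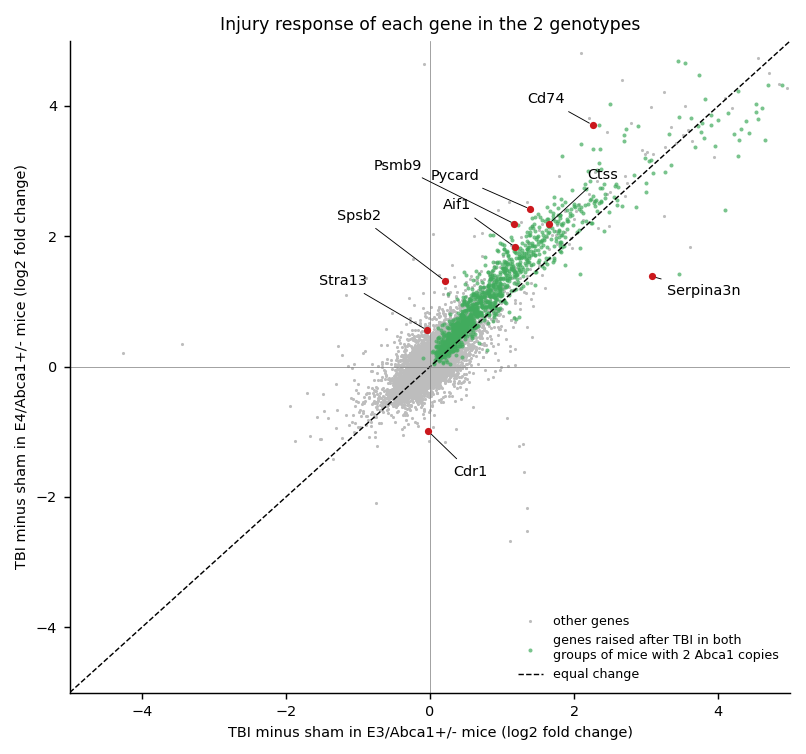
Each point is 1 of 15137 tested genes, with its TBI minus sham log2 fold change in E3/Abca1+/- mice on the x axis and in E4/Abca1+/- mice on the y axis; 25 further genes lie outside the axes, green points are the genes raised in mice with 2 Abca1 copies, red points are named genes and the dashed line marks equal change. Of the 1254 green genes 1086 have a positive interaction, Cd74, Pycard, Psmb9 and Aif1 lie above the line, and Serpina3n and Cdr1 lie below it.

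A wider set of injury genes came from the 30 mice with 2 Abca1 copies, none of which is among the 28: 1254 genes had risen and 626 had fallen there in both isoforms. In the mice with 1 copy, 1218 of the 1254 raised genes rose with E4 and 1090 rose with E3, against 20% and 12% of all genes. Their median log2 change was 0.91 in E4/Abca1+/- and 0.64 in E3/Abca1+/- mice, and their median interaction was 0.20 (quartiles 0.08 and 0.37), against a median of 0.02 over all 15162 genes. The interaction was positive for 1086 of the 1254, against 55.3% of all genes, and at an unadjusted p under 0.05 it was higher for 243 and lower for 2 of them, against 4.03% and 2.31% of all genes. The 243 became 139 without injured E4/Abca1+/- replicate 3, 156 without its replicate 1, 154 without injured E3/Abca1+/- replicate 1 and 159 without sham E3/Abca1+/- replicate 2. These genes share cells and libraries, so their number is no measure of independent evidence. Most genes of the microglial, antigen presentation, lysosomal, interferon and complement lists below also rose, so the raised genes are a closer measure for them. Of the raised genes 86.6% had a positive interaction and 19.4% were higher at an unadjusted p under 0.05. The median interaction was 0.37 over the 366 raised genes with a stricter threshold.

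Mouse by mouse, the mean log2(CPM + 1) over the 1254 raised genes ran from 3.42 through a median of 3.47 to 3.58 in sham E3/Abca1+/- mice and from 3.43 through 3.46 to 3.78 in sham E4/Abca1+/- mice. After TBI it ran from 3.97 through 4.23 to 4.34 in E3/Abca1+/- mice and from 4.15 through 4.46 to 4.78 in E4/Abca1+/- mice. The sham medians were alike, with sham E4/Abca1+/- replicate 2 above the others, the injured groups overlapped, and 6 of the 8 injured E4/Abca1+/- mice lay above every injured E3/Abca1+/- mouse. The difference of differences was 0.22 on this scale, with a pooled within-group SD of 0.148. Without the 3 mice that stood apart, the median interaction over the raised genes was 0.29 and 1179 of the 1254 were positive. In tissue of many cell types, a change in the number of cells of a type and a change in RNA per cell cannot be told apart. This holds here and for every list that follows.

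The 626 lowered genes fell in most cases in both genotypes. Their median log2 change was -0.32 in E4/Abca1+/- and -0.30 in E3/Abca1+/- mice, their median interaction was -0.02, and 6 were higher and 26 lower at an unadjusted p under 0.05 (4.03% and 2.31% of all genes). Without the 3 mice that stood apart this median was -0.10, and injured E4/Abca1+/- replicate 8 had a per-mouse mean over these genes of 6.73, against at most 6.47 in the rest of its group. Of the 626, 579 fell with E4 and 539 fell with E3, against 16.9% and 9.45% of all genes.

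**Figure D2:**
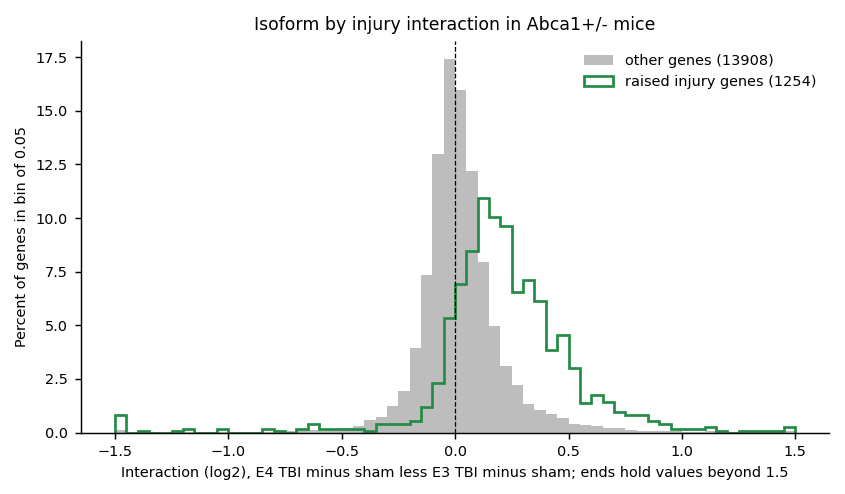
Distribution of the interaction on the log2 scale (x axis, bins of 0.05) as the percent of genes in each set (y axis). The sets are the 1254 injury-raised genes (line) and all other tested genes (filled), and the end bins hold values beyond 1.5. The raised genes are shifted to the right of 0 with a median of 0.20, against 0.02 over all tested genes. The 626 injury-lowered genes, here among the other genes, have a median of -0.02, which is -0.10 without the 3 mice that stood apart.

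Among the 15 genes with the smallest p for a higher response in E4/Abca1+/- mice, some are known from microglia and other immune cells. Aif1 (17:35170986-35176083 in GRCm38.p6), which encodes IBA1, the calcium-binding protein by which microglia and macrophages are commonly stained, had a lowest, median and highest level of 3.98, 4.30 and 5.58 CPM in sham and 8.94, 9.98 and 12.7 CPM in injured E3/Abca1+/- mice. With E4, Aif1 was at 4.13, 4.73 and 5.38 CPM in sham and 12.5, 16.5 and 21.99 CPM in injured mice. The sham groups lay at the same level, and 7 of the 8 injured E4/Abca1+/- mice were above all injured E3/Abca1+/- mice. Aif1 rose by 1.83 in E4/Abca1+/- and 1.18 in E3/Abca1+/- mice on the log2 scale, with an interaction of 0.65 (SE 0.16), and among injured mice it was 0.69 higher in E4/Abca1+/- than in E3/Abca1+/- mice (edgeR adjusted p = 0.00066).

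Pycard (7:127991373-127993867) encodes ASC, the adaptor that assembles inflammasomes. Its lowest, median and highest levels were 1.18, 2.10 and 2.39 CPM in sham and 3.91, 5.32 and 6.82 CPM in injured E3/Abca1+/- mice, and 0.912, 1.76 and 2.30 CPM in sham and 5.03, 8.94 and 12.5 CPM in injured E4/Abca1+/- mice. Again the shams overlapped and 7 of the 8 injured E4/Abca1+/- mice lay above every injured E3/Abca1+/- mouse. The log2 change of Pycard was 2.42 in E4/Abca1+/- and 1.39 in E3/Abca1+/- mice, with an interaction of 1.03 (SE 0.27). Tnfaip8l2, which encodes TIPE2, a protein that restrains signalling from immune receptors, and whose gene overlaps Lysmd1, had medians of 4.58 CPM in injured E3/Abca1+/- and 7.65 CPM in injured E4/Abca1+/- mice and an interaction of 0.72 (SE 0.19). Rps6ka1, the kinase RSK1 of the ERK pathway, had injured medians of 20.9 and 28.2 CPM and an interaction of 0.52 (SE 0.13). For both, 7 of the 8 injured E4/Abca1+/- mice were above all injured E3/Abca1+/- mice.

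In other genes of this group the sham levels differed too. Stra13 (11:120710941-120713895, Cenpx in RefSeq, overlapping Lrrc45) encodes a DNA repair protein that also sits at centromeres. Its lowest, median and highest levels were 5.87, 6.78 and 7.20 CPM in sham and 5.72, 6.40 and 7.44 CPM in injured E3/Abca1+/- mice, against 4.47, 5.23 and 5.67 CPM in sham and 6.32, 7.83 and 9.01 CPM in injured E4/Abca1+/- mice. The sham ranges did not overlap: Stra13 was lower in sham E4/Abca1+/- than in sham E3/Abca1+/- mice by 0.35 on the log2 scale (edgeR adjusted p = 0.012), then rose by 0.56 with E4, against a change of -0.04 with E3. Its interaction was 0.60 (SE 0.11).

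Spsb2 (6:124808604-124810619, overlapping Tpi1), an adaptor that directs inducible nitric oxide synthase to degradation, was also lower in sham E4/Abca1+/- than in sham E3/Abca1+/- mice. Its lowest, median and highest levels were 2.16, 2.37 and 2.99 CPM in sham and 2.06, 2.86 and 3.63 CPM in injured E3/Abca1+/- mice, against 0.997, 1.49 and 2.09 CPM in sham and 2.64, 3.96 and 4.61 CPM in injured E4/Abca1+/- mice. Sham E4/Abca1+/- mice were below every sham E3/Abca1+/- mouse (log2 difference of -0.72, edgeR adjusted p = 0.012), while 6 of 8 injured E4/Abca1+/- mice were above every injured E3/Abca1+/- mouse. The interaction was 1.11 (SE 0.23), made of a log2 change of 1.31 with E4 and 0.21 with E3. Tfeb, a transcription factor of lysosomal genes, rose by 0.77 with E4 and had a change of 0.14 with E3 (edgeR adjusted p = 0.45), with an interaction of 0.63 (SE 0.16). Rasa4, which switches off Ras, had an interaction of 0.92 (SE 0.23), with sham medians of 3.56 CPM in E3/Abca1+/- and 2.37 CPM in E4/Abca1+/- mice and injured medians of 6.62 and 8.30 CPM.

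The 300 bases around the transcription start of 6 of the genes described here are shown because these genes carry the pattern: Aif1 and Pycard from the smallest p-values, B2m, Tap1 and Ctss from antigen presentation, and Serpina3n from the opposite direction. Each runs from 250 bases before to 50 bases after the start in RefSeq (GRCm38.p6), 5′ to 3′ on the strand of the gene. Capitals mark the searched motifs on either strand: the PU.1 motif GAGGAA, known from myeloid genes, the interferon response motif (GAAANN followed by GAAA) and the STAT motif TTCNNNGAA. Over 14994 promoters of the same length, 26.5% hold the PU.1 motif, 2.94% the interferon response motif and 6.73% the STAT motif.
Aif1, chr17:35176003-35176302, minus strand: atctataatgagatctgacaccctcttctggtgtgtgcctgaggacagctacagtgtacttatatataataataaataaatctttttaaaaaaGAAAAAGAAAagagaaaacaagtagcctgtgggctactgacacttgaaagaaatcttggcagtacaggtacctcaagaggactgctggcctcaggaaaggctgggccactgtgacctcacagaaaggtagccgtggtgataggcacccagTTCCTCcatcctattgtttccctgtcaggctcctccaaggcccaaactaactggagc
Pycard, chr7:127993818-127994117, minus strand: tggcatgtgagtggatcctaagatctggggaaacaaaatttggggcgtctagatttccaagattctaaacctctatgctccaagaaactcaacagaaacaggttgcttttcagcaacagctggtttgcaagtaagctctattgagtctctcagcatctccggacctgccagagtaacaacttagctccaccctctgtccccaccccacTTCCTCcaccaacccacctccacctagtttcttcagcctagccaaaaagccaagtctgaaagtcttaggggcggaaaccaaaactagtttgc
B2m, chr2:122147437-122147736, plus strand: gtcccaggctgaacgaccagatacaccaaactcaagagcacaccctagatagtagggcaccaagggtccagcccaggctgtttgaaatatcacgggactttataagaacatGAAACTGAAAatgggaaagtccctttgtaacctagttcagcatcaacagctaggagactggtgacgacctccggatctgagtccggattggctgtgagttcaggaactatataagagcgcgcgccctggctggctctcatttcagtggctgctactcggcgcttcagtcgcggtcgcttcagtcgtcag
Ctss, chr3:95526536-95526835, plus strand: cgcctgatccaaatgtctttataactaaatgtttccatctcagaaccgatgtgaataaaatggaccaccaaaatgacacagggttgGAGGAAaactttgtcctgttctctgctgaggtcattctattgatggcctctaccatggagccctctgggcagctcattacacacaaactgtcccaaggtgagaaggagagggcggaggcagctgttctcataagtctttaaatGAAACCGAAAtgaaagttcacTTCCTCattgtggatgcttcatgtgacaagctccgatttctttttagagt
Tap1, chr17:34187306-34187605, plus strand: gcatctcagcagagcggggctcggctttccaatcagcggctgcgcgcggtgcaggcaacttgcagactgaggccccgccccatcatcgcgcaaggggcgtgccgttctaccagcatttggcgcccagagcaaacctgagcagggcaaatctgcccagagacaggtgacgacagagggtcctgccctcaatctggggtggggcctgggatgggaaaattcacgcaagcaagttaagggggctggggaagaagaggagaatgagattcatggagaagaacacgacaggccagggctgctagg
Serpina3n, chr12:104406458-104406757, plus strand: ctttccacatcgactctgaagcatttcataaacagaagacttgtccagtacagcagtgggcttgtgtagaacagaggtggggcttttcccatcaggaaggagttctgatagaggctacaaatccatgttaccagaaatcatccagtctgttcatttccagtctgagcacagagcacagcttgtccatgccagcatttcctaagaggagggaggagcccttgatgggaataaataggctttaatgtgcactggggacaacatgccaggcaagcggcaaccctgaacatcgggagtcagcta
The letters of the interferon response motif are present in Aif1, B2m and Ctss, and those of the PU.1 motif in Aif1, Pycard and Ctss. No letters of the 3 motifs are in the windows of Tap1 and Serpina3n, and Tap1 shares 275 of its 300 bases with the promoter of its neighbour Psmb9, which is read on the other strand. Such matches are descriptions of sequence and not evidence of binding.

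Genes of MHC class I antigen presentation had higher median levels in injured E4/Abca1+/- than in injured E3/Abca1+/- mice. Class I molecules carry peptides, cut by the immunoproteasome and moved by the TAP transporter, to the cell surface for T cells to inspect. Of 17 class I genes tested, 16 rose with E4 and 16 with E3, against 20% and 12% of all genes, with median log2 changes of 1.99 and 1.17. The median interaction was 0.52 against 0.02 over all genes, and 16 of 17 were positive (55.3% of all genes). At an unadjusted p under 0.05, 10 were higher and 0 lower (4.03% and 2.31% of all genes).

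B2m (2:122147687-122153082), the light chain shared by all class I molecules, ran from 66.5 through a median of 75.1 to 82.4 CPM in sham and from 155 through 185 to 192 CPM in injured E3/Abca1+/- mice. In E4/Abca1+/- mice it ran from 71.1 through 79.5 to 114 CPM in sham and from 175 through 282 to 415 CPM in injured mice. Every injured mouse was above every sham mouse, and 7 of 8 injured E4/Abca1+/- mice exceeded the highest injured E3/Abca1+/- mouse. The interaction of B2m was 0.52 (SE 0.19), and the difference between the injured groups was 0.70 (edgeR adjusted p = 0.0028).

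Psmb9 (17:34182030-34187330), an immunoproteasome subunit, had medians of 1.30 CPM in sham and 3.04 CPM in injured E3/Abca1+/- mice and of 1.11 CPM in sham and 4.96 CPM in injured E4/Abca1+/- mice, with an interaction of 1.02 (SE 0.31). The neighbouring Tap1 (17:34187556-34197225), a subunit of the peptide transporter, had medians of 3.38 and 7.32 CPM in sham and injured E3/Abca1+/- mice and of 3.05 and 11.6 CPM in sham and injured E4/Abca1+/- mice, with an interaction of 0.87 (SE 0.27). The heavy chain gene H2-K1 had an interaction of 0.64 (SE 0.22), with injured medians of 77.0 CPM in E3/Abca1+/- and 128 CPM in E4/Abca1+/- mice. H2-D1 (0.70, SE 0.26) and H2-M3 (0.79, SE 0.24), which presents formylated peptides, had interactions of like size. Heavy chain genes of this family resemble each other, so reads shared among them make their single values uncertain. In per-mouse means over the class I genes, 6 of 8 injured E4/Abca1+/- mice, with a median of 4.39 on the log2(CPM + 1) scale, lay above all injured E3/Abca1+/- mice, with a median of 3.88, while sham medians were 2.95 and 3.02.

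The 10 MHC class II genes, which present material taken up by phagocytes to helper T cells, had a median interaction of 0.71, with 9 positive and 5 higher at an unadjusted p under 0.05 (55.3% and 4.03% of all genes). Of the 10, 9 rose with E4 and 8 rose with E3, against 20% and 12% of all genes. Without injured E4/Abca1+/- replicate 6, which had the highest B and plasma cell marker sum and the highest class II mean of its group (4.71 on the log2(CPM + 1) scale), 3 were higher at an unadjusted p. H2-Eb1, a class II beta chain, ran from 5.07 through 8.67 to 13.1 CPM in injured E3/Abca1+/- mice and from 5.79 through 14.7 to 50.3 CPM in injured E4/Abca1+/- mice. Cd74, the invariant chain that escorts class II molecules, ran from 14.1 through 28.5 to 40.9 CPM and from 20.3 through 38.9 to 192 CPM in the same groups. The injured ranges overlapped in both genes, with 4 of 8 injured E4/Abca1+/- mice above all injured E3/Abca1+/- mice and a long upper tail. Their interactions were 1.32 (SE 0.53) for H2-Eb1 and 1.45 (SE 0.59) for Cd74, and in females alone the list median was 0.21.

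All 25 lysosomal genes tested had a positive interaction (55.3% of all genes), with a median of 0.32, and 10 of them were higher at an unadjusted p under 0.05 (4.03% of all genes). That count depended on single mice: it was 3 without injured E4/Abca1+/- replicate 8, 4 without its replicate 3, 5 without its replicate 1, 18 without its replicate 6 and 4 without injured E3/Abca1+/- replicate 1, and it was 1 in males alone and 7 in females alone. Of the 25, 24 rose with E4 and 22 rose with E3 (20% and 12% of all genes), with median log2 changes of 1.10 and 0.81. Ctss (3:95526786-95556405), a protease of microglial lysosomes that also trims the invariant chain, ran from 64.7 through 77.8 to 95.2 CPM in sham and from 206 through 248 to 276 CPM in injured E3/Abca1+/- mice. In E4/Abca1+/- mice Ctss ran from 52.4 through 77.6 to 137 CPM in sham and from 234 through 395 to 511 CPM in injured mice. The sham medians were alike, and 7 of 8 injured E4/Abca1+/- mice were above all injured E3/Abca1+/- mice.

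The interaction of Ctss was 0.54 (SE 0.23). Grn, the precursor of the lysosomal granulins, had injured medians of 160 and 224 CPM in E3/Abca1+/- and E4/Abca1+/- mice from sham medians of 77.2 and 76.4 CPM, with an interaction of 0.51 (SE 0.22). Ctsl (0.40, SE 0.13), a cysteine protease, and Man2b1 (0.34, SE 0.13), a mannosidase, followed. Ifi30, a thiol reductase that unfolds antigens in the lysosome, had an interaction of 0.87 (SE 0.31). Ctsd, an aspartic protease, had a wide spread, with 786 to 1629 CPM in injured E3/Abca1+/- and 896 to 2811 CPM in injured E4/Abca1+/- mice and an interaction of 0.40 (SE 0.28).

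**Figure D3:**
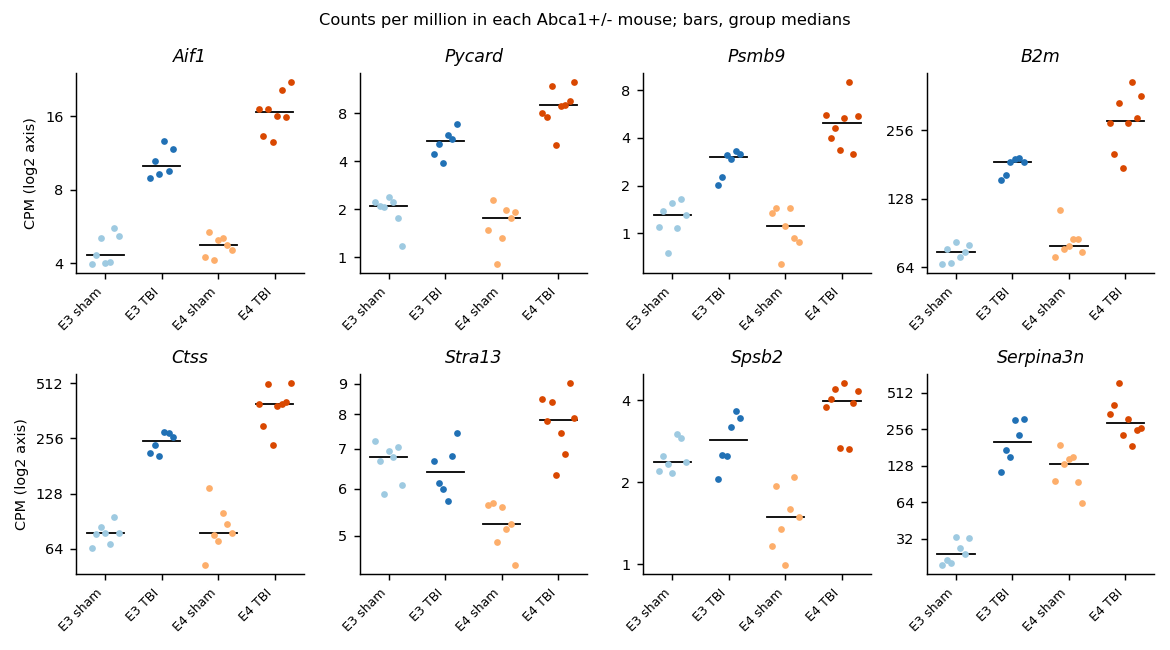
CPM on a log2 axis for single genes in each of the 28 Abca1+/- mice, by genotype and treatment, with bars at the group medians. Aif1, B2m and Ctss have overlapping sham groups and mostly separate injured groups, whereas Stra13 and Serpina3n differ between the genotypes already in sham mice.

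Microglial genes of the resting state and of the reactive state rose in both genotypes. All 18 homeostatic microglia genes rose in both genotypes, with median log2 changes of 1.10 in E4/Abca1+/- and 0.82 in E3/Abca1+/- mice, all 18 had a positive interaction with a median of 0.27, and 6 were higher at an unadjusted p under 0.05. Over all genes 20% rose with E4, 12% rose with E3, 55.3% had a positive interaction and 4.03% were higher at that p. Cx3cr1, the receptor by which microglia sense neuronal fractalkine, ran from 91.4 through 105 to 131 CPM in injured E3/Abca1+/- and from 117 through 154 to 184 CPM in injured E4/Abca1+/- mice, with sham medians of 59.7 and 65.4 CPM. The injured ranges overlapped, with 6 of 8 injured E4/Abca1+/- mice above all injured E3/Abca1+/- mice. Its interaction was 0.36 (SE 0.13). Tmem119, a surface protein of resident microglia, had injured medians of 39.1 and 47.5 CPM and an interaction of 0.39 (SE 0.13), Itgam, the CD11b integrin chain, one of 0.51 (SE 0.21), and Csf1r, the receptor that keeps microglia alive, one of 0.23 (SE 0.13).

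All 22 genes of disease-associated microglia rose in both genotypes, with a median interaction of 0.24, 16 positive and 5 higher at an unadjusted p under 0.05, against 55.3% and 4.03% of all genes. Cd9, a tetraspanin, had an interaction of 0.47 (SE 0.18). Of 25 sensing and phagocytic receptor genes, 24 rose in each genotype (20% and 12% of all genes), the median interaction was 0.28 and 3 were higher at an unadjusted p under 0.05 (4.03%). In this list 88% were positive and 12% higher, and in the disease-associated list 72.7% and 22.7%. Over the 1254 raised genes these shares were 86.6% and 19.4%. Fcer1g, the signalling chain of Fc receptors, had an interaction of 0.55 (SE 0.24), with 7 of 8 injured E4/Abca1+/- mice above all injured E3/Abca1+/- mice, and Itgb2, the CD18 integrin chain, had one of 0.60 (SE 0.29).

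Complement genes had interactions of both signs. Of 18 tested, 15 rose in E4/Abca1+/- and 14 in E3/Abca1+/- mice (20% and 12% of all genes). The median interaction was 0.23, 12 were positive and 5 were higher at an unadjusted p under 0.05, against 55.3% and 4.03% of all genes, so that the share of positive values was near that of all genes. C1qa, a chain of the C1q complex that tags debris and synapses, ran from 160 through 187 to 262 CPM in injured E3/Abca1+/- and from 181 through 286 to 343 CPM in injured E4/Abca1+/- mice, with sham medians of 54.8 and 48.1 CPM. The ranges overlapped after injury, with 6 of 8 injured E4/Abca1+/- mice above all injured E3/Abca1+/- mice. The interaction was 0.48 (SE 0.22) for C1qa, 0.63 (SE 0.25) for C1qb and 1.14 (SE 0.43) for C1ra, a serine protease of the C1 complex. C4b, the complement component that C1 cleaves, rose by 2.48 in E4/Abca1+/- and 2.60 in E3/Abca1+/- mice, with an interaction of -0.12 (SE 0.27) that turned to 0.20 without the 3 mice that stood apart.

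All 28 interferon-stimulated genes tested rose in both genotypes, by a median of 1.92 in E4/Abca1+/- and 1.47 in E3/Abca1+/- mice on the log2 scale, with 24 positive interactions and 4 higher at an unadjusted p under 0.05. Of all genes 20% and 12% rose, 55.3% were positive and 4.03% were higher. In this list 85.7% were positive and 14.3% higher, against 86.6% and 19.4% of the 1254 raised genes. Gbp3, a guanylate-binding protein of cell defence, ran from 3.49 through 4.01 to 4.51 CPM in sham and from 10.3 through 10.6 to 11.3 CPM in injured E3/Abca1+/- mice, and from 3.76 through 4.57 to 7.73 CPM in sham and from 11.35 through 18.8 to 21.97 CPM in injured E4/Abca1+/- mice. All 8 injured E4/Abca1+/- mice lay above all injured E3/Abca1+/- mice, while the shams overlapped. The interaction of Gbp3 was 0.44 (SE 0.19), and the injured groups differed by 0.73 (edgeR adjusted p = 0.0017). Irf9 (0.38, SE 0.15), part of the interferon signalling machinery, and Dhx58 (0.89, SE 0.30), a sensor of viral RNA, had positive interactions too. Among 23 chemokine and cytokine genes the median interaction was 0.13 and 2 were higher at an unadjusted p under 0.05, such as Il1a (0.68, SE 0.29), which microglia release to induce reactive astrocytes.

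**Figure D4:**
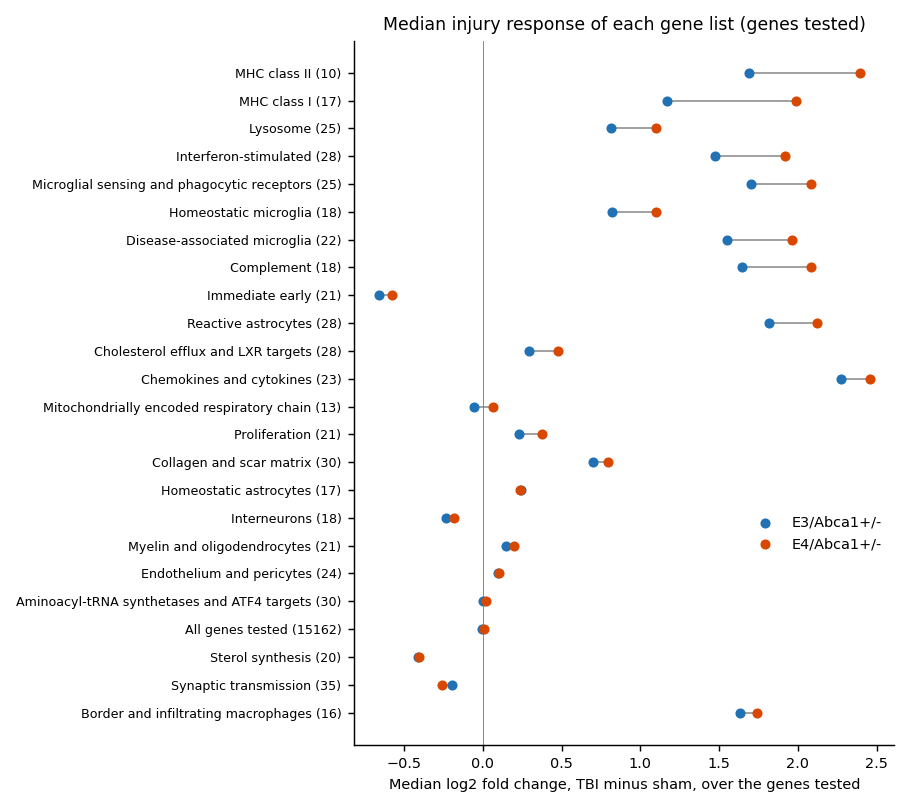
Median log2 fold change, TBI minus sham, of the tested genes of each pathway list (x axis) in E3/Abca1+/- and E4/Abca1+/- mice, with 1 line per list. Among the pathway lists drawn, the E4/Abca1+/- median exceeds the E3/Abca1+/- median most in the MHC class I (1.99 against 1.17) and class II (2.39 against 1.69) lists, and both are equally low in sterol synthesis (-0.40 and -0.41).

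The genes of lipid transport around ABCA1 and APOE gave small differences. Abca1 (4:53030789-53159988) rose in both genotypes, by 1.93 in E4/Abca1+/- and 1.54 in E3/Abca1+/- mice, and its lowest, median and highest levels were 76.2, 104 and 135 CPM in injured E3/Abca1+/- and 80.6, 130 and 213 CPM in injured E4/Abca1+/- mice. The injured ranges overlapped, and the sham medians were both 35.5 CPM. The interaction of Abca1 was 0.39 (SE 0.22), and that of the reads assigned to Apoe was 0.19 (SE 0.10).

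Of 28 genes of cholesterol transport and LXR targets, 17 rose in E4/Abca1+/- and 16 in E3/Abca1+/- mice, 23 interactions were positive with a median of 0.15, and 4 were higher at an unadjusted p under 0.05. The shares over all genes were 20%, 12%, 55.3% and 4.03%. The 4 were Srebf1 (0.39, SE 0.16), which drives fatty acid synthesis, Npc2 (0.32, SE 0.14), which carries cholesterol out of lysosomes, Clu (0.26, SE 0.12), the lipid carrier apolipoprotein J, and Lcat (0.23, SE 0.11), which esterifies cholesterol on particles. Sterol synthesis genes gave a different result. Of 20 tested, 16 fell in E4/Abca1+/- and 17 in E3/Abca1+/- mice (16.9% and 9.45% of all genes), by a median of 0.40 and 0.41 on the log2 scale, and their median interaction was 0.01 with 1 gene higher at an unadjusted p under 0.05. Hmgcs1, an early enzyme of the pathway, fell by 0.47 in E4/Abca1+/- and 0.48 in E3/Abca1+/- mice, with an interaction of 0.01 (SE 0.11).

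In the opposite direction the smallest p was that of Serpina3n (12:104406646-104414334), a secreted serine protease inhibitor made by reactive astrocytes. Its lowest, median and highest levels were 19.5, 24.1 and 33.1 CPM in sham and 114, 202 and 310 CPM in injured E3/Abca1+/- mice, and 63.0, 132 and 192 CPM in sham and 187, 288 and 615 CPM in injured E4/Abca1+/- mice. The sham groups did not overlap, every sham E4/Abca1+/- mouse being above every sham E3/Abca1+/- mouse, while the injured groups did. Serpina3n was 4.94-fold higher in sham E4/Abca1+/- than in sham E3/Abca1+/- mice (edgeR adjusted p = 2.1e-06), and the injured groups had a log2 difference of 0.61 (edgeR adjusted p = 0.14). It rose 2.61-fold after TBI in E4/Abca1+/- and 8.46-fold in E3/Abca1+/- mice, an interaction of -1.70 (SE 0.35) that did not pass in edgeR (adjusted p = 0.265) and passed in DESeq2 (adjusted p = 0.0482).

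Mice with 2 Abca1 copies gave similar values for Serpina3n. Sham levels there ran from 17.1 through 27.6 to 34.2 CPM in E3 and from 63.8 through 97.1 to 167 CPM in E4 mice, and injured levels from 112 through 185 to 351 CPM and from 115 through 166 to 789 CPM. Again the sham groups did not overlap and the injured groups did. The interaction was -1.68 (SE 0.45) with 2 copies, and the difference between the interactions with 1 and 2 copies was -0.01 (SE 0.60). The neighbouring Serpina3m (12:104387157-104394259) had medians of 0.169 CPM in sham and 1.42 CPM in injured E3/Abca1+/- mice, against 5.81 and 13.4 CPM in E4/Abca1+/- mice, with no overlap between the genotypes in either treatment. Its sequence is close to that of other members of the cluster and the sham E3/Abca1+/- level is near the counting limit, so its values are uncertain. Other members had interactions of both signs: Serpina3h 1.44 (SE 0.74), Serpina3g 0.62 (SE 0.43), Serpina3c 0.41 (SE 0.79), Serpina3f -1.77 (SE 1.05) and Serpina3i -1.70 (SE 0.99). In shams, Serpina3c, f, h, i and m were higher with E4, by 2.21 to 5.13 on the log2 scale, and Serpina3g differed by -0.05.

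Other reactive astrocyte genes had interactions of both signs. Of 28 reactive astrocyte genes, 24 rose in E4/Abca1+/- and 23 in E3/Abca1+/- mice (20% and 12% of all genes). Of their interactions 15 were positive, a share near the 55.3% of all genes, with a median of 0.16, and 0 were higher and 1 lower at an unadjusted p under 0.05 (4.03% and 2.31%). Gfap, the intermediate filament of astrocytes, ran from 221 through 280 to 338 CPM in sham and from 1162 through 1540 to 1887 CPM in injured E3/Abca1+/- mice. In E4/Abca1+/- mice it ran from 260 through 345 to 679 CPM in sham and from 1284 through 1975 to 2869 CPM in injured mice. The ranges overlapped within each treatment, and the interaction of Gfap was -0.10 (SE 0.26), 0.18 without the 3 mice that stood apart. Lcn2 had an interaction of -2.38 (SE 1.36) that rested on the sham E4/Abca1+/- replicate 2 and was 0.34 without the 3 mice. Cd44, a hyaluronan receptor, had an interaction of 0.64 (SE 0.34).

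Synaptic genes had mostly small negative interactions. Of 35 synaptic genes, 30 fell in E4/Abca1+/- mice (16.9% of all genes fell) and 23 in E3/Abca1+/- mice (9.45%), with median log2 changes of -0.26 and -0.19. The median interaction was -0.07, 8 of 35 were positive, and 0 were higher and 2 lower at an unadjusted p under 0.05. Over all genes 55.3% were positive, 4.03% higher and 2.31% lower.

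Grin2b, a subunit of the NMDA type glutamate receptor and 1 of those 2, had injured medians of 91.5 and 73.3 CPM in E3/Abca1+/- and E4/Abca1+/- mice and an interaction of -0.64 (SE 0.24). Gria2, an AMPA receptor subunit, had one of -0.13 (SE 0.07).

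The 15 genes with the smallest p for a lower response in E4/Abca1+/- mice otherwise had mostly small differences. Aak1, a kinase of the endocytic adaptor AP2, ran from 512 through 568 to 640 CPM in injured E3/Abca1+/- and from 442 through 472 to 510 CPM in injured E4/Abca1+/- mice, with an interaction of -0.21 (SE 0.06). Lonrf2 ran from 197 through 211 to 221 CPM and from 167 through 181 to 195 CPM in the same groups, with an interaction of -0.20 (SE 0.06). In neither gene did the injured groups overlap. Prepl, a peptidase-like protein (-0.19, SE 0.06), Rbfox2, a splicing factor (-0.18, SE 0.06), Pds5b, a regulator of cohesin (-0.20, SE 0.06), and Macrod2, which removes ADP-ribose from proteins (-0.27, SE 0.07), had values of like size. Cdr1 (X:61183246-61185558) had medians of 12.5 CPM in injured E3/Abca1+/- and 5.18 CPM in injured E4/Abca1+/- mice with no overlap, and an interaction of -0.95 (SE 0.27). A circular RNA is made from the opposite strand of that locus, and the reads of the 2 transcripts cannot be told apart here.

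Immediate early genes, which neurons induce on firing, had a positive median interaction of 0.20, with 16 of 21 positive and 0 past an unadjusted p under 0.05. Over all genes 55.3% were positive, 4.03% higher and 2.31% lower. Of the 21, 15 fell in E4/Abca1+/- and 17 in E3/Abca1+/- mice (16.9% and 9.45% of all genes). Egr1, a transcription factor, fell by 0.94 and 1.31, with an interaction of 0.37 (SE 0.30), and Arc, a protein of synaptic plasticity, fell by 1.10 and 1.51, with one of 0.41 (SE 0.35).

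Lists of other tissue functions had median interactions near that of all genes. The median was 0.03 over 30 aminoacyl-tRNA synthetases and ATF4 targets, 0.05 over 21 myelin genes, 0.04 over 24 endothelial genes, 0.07 over 30 collagen and scar matrix genes, 0.06 over 17 homeostatic astrocyte genes and 0.05 over 18 interneuron genes. In each of these lists 0 to 2 genes were higher at an unadjusted p under 0.05 (4.03% of all genes). The medians over 21 proliferation genes (0.09), 13 mitochondrially encoded genes (0.12) and 16 genes of border macrophages (-0.11) were also small.

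Among markers of cells that enter the tissue, the sum of those tested for T and NK cells lay higher in the injured E4/Abca1+/- group. It covers Cd4, Cd8a, Trac, Trbc2, Lck and Ccl5. Cd3d, Cd3e, Cd3g, Cd8b1, Cd2, Nkg7, Gzma and Gzmb were not among the genes tested, so the sum does not measure T or NK cells as such. For T and NK cells 6 of 14 markers were tested, and their summed level ran from 4.22 through 5.62 to 7.72 CPM in injured E3/Abca1+/- and from 7.01 through 12.2 to 21.1 CPM in injured E4/Abca1+/- mice, against sham medians of 5.56 and 6.38 CPM. In 7 of 8 injured E4/Abca1+/- mice this sum exceeded that of every injured E3/Abca1+/- mouse. The highest sums were those of replicates 8 (21.1 CPM) and 6 (20.7 CPM), both among the 3 mice that stood apart, and the next was 14.2 CPM. Trbc2, which encodes a constant chain of the T cell receptor, fell in both genotypes, by 0.69 in E4/Abca1+/- and 1.47 in E3/Abca1+/- mice, with an interaction of 0.78 (SE 0.32).

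For B and plasma cells 3 of 7 markers were tested, with summed levels of 16.2, 26.9 and 67.3 CPM (lowest, median and highest) in injured E3/Abca1+/- and 16.3, 30.6 and 354 CPM in injured E4/Abca1+/- mice. Of these, Ighm, the heavy chain of IgM, had an interaction of 1.17 (SE 0.38), and Igkc, the kappa light chain, ran from 1.83 through 6.39 to 249 CPM in injured E4/Abca1+/- mice. The 3 neutrophil markers tested of 9 summed to 15.8, 19.4 and 46.4 CPM in injured E3/Abca1+/- and 17.1, 24.7 and 47.9 CPM in injured E4/Abca1+/- mice. The ranges of B and plasma cell and of neutrophil markers overlapped between the injured groups. The part of these cells in the higher class I and class II levels was not tested.

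Dissection markers are given for the same reason. Summed hippocampal markers ran from 703 through 829 to 1032 CPM in injured E3/Abca1+/- and from 460 through 792 to 887 CPM in injured E4/Abca1+/- mice, cortical markers from 729 through 786 to 902 CPM and from 675 through 777 to 1060 CPM, and thalamus and subcortex markers from 226 through 235 to 280 CPM and from 219 through 246 to 766 CPM. The groups overlapped for all 3. The median interaction was -0.18 over 15 hippocampal and 0.07 over 15 cortical markers, with 1 and 9 of them positive, against 55.3% of all genes. It was 0.05 over both the 10 meningeal fibroblast and the 10 choroid plexus and ependyma markers, and -0.98 over the 3 erythrocyte markers tested. The 14 thalamus and subcortex markers tested had a median interaction of 0.47, which was 0.18 without the 3 mice that stood apart. All 14 were positive and 3 were higher at an unadjusted p under 0.05, against 55.3% and 4.03% of all genes. The part of dissection in the values of the other lists was not tested. Ramp3, a receptor partner protein of that list, was at 5.37 CPM in injured E3/Abca1+/- and 7.55 CPM in injured E4/Abca1+/- mice at the median, with an interaction of 0.61 (SE 0.18), and Adora2a, the striatal adenosine receptor, reached 58.5 CPM in 1 injured E4/Abca1+/- mouse. Without the 3 mice together, the class I, class II and lysosomal lists held 11, 5 and 20 genes higher at an unadjusted p under 0.05, against 10, 5 and 10 with all mice. Without injured E4/Abca1+/- replicate 8 alone they held 10, 6 and 3, and without replicate 6 alone 10, 3 and 18.

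**Figure D5:**
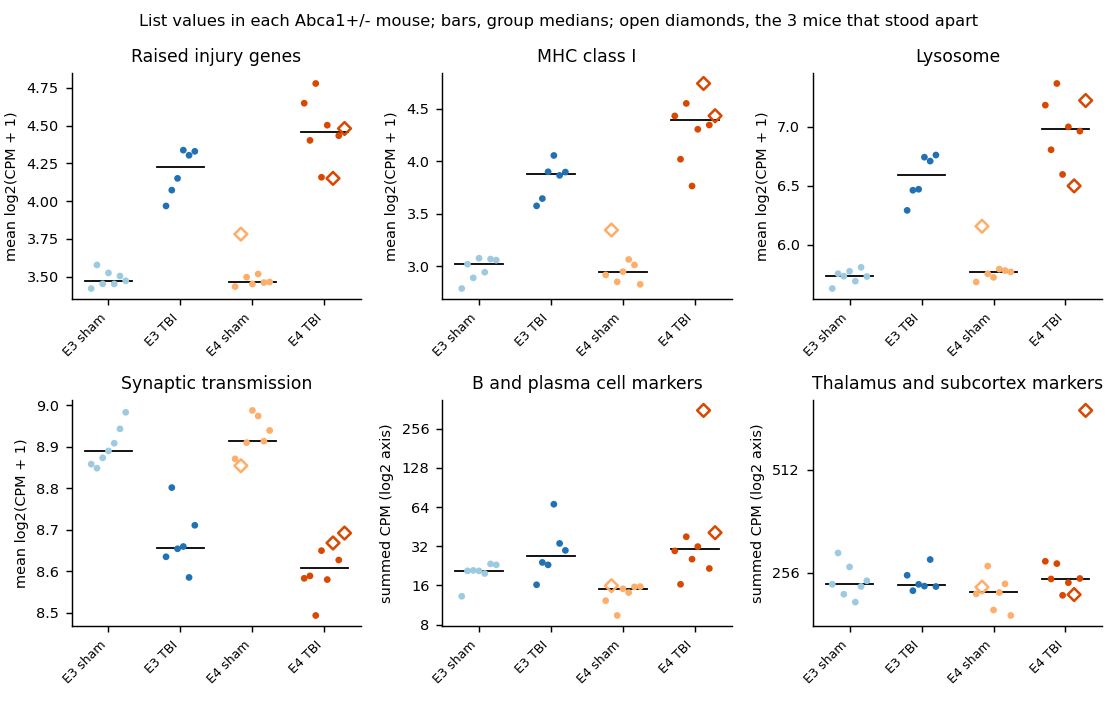
List values in each of the 28 Abca1+/- mice by genotype and treatment, as means of log2(CPM + 1) for gene lists and summed CPM for marker lists, with bars at the group medians and open diamonds for the 3 mice that stood apart. For the injury-raised, class I and lysosomal genes 6 of the 8 injured E4/Abca1+/- mice lie above all injured E3/Abca1+/- mice, and sham E4/Abca1+/- replicate 2 lies above the other shams.

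The same interaction in the 30 mice with 2 Abca1 copies gave 0 genes past an adjusted p of 0.05 in edgeR, with 152 higher (1.05%) and 154 lower (1.06%) at an unadjusted p under 0.05. Over the 1254 raised genes, which those mice had served to choose, its median was -0.02 with 551 positive. Medians of injured E3 and E4 mice with 2 copies were 12.0 and 8.97 CPM for Aif1 and 5.47 and 4.16 CPM for Pycard. They were 3.58 and 3.09 CPM for Psmb9 and 235 and 206 CPM for Ctss. Each of these was higher in the E3 group, with overlapping ranges, but not every gene named above was. B2m was level, at 200 and 199 CPM. The E4 group was higher for Spsb2 (2.85 and 3.18 CPM), Stra13 (6.58 and 6.70 CPM) and Rps6ka1 (22.2 and 22.9 CPM), with overlapping ranges. Of the 15 genes with the smallest p for a higher response in E4/Abca1+/- mice, 3 had the same sign with 2 copies, and of the 15 for a lower response 8 did. Abca1 copies went with library depth. Group medians were 6835372 to 9715595 counts with 2 copies, against 15116304 to 22835554 with 1 copy. The part of depth in the values with 2 copies and in the difference below was not tested.

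The difference between the interactions with 1 and 2 Abca1 copies, fitted over all 58 mice, passed for 0 genes in edgeR, with a smallest adjusted p of 0.979 and 434 genes higher (2.86%) and 239 lower (1.58%) at an unadjusted p under 0.05. It was 0.79 (SE 0.30) for Aif1 and 0.81 for Stra13. Both genes were named for a small interaction p in the mice with 1 copy. Those mice enter this difference too, so the 2 values are no separate evidence. Over the class I, class II and lysosomal lists its median was 0.70, 0.77 and 0.37, and over the raised genes 0.24, where the selecting mice enter the value. Sex was examined in the same way: the interaction in females minus that in males passed for 0 genes in edgeR (smallest adjusted p = 0.655), with 192 genes higher (1.27%) and 175 lower (1.15%) at an unadjusted p under 0.05. Each sex holds 3 or 4 mice per group.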

How the data were processed

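RNA was extracted from pooled hippocampus and cortex of each mouse, samples with an RNA integrity number above 8 were made into libraries, and these were sequenced on an Illumina HiSeq. The authors aligned and summarised the reads with Subread 1.5.0 and its featureCounts program (mm10, per the submitters' processing notes) and deposited whole-number counts per gene for 58 mice in 1 table. The table had 2 blank rows, which were dropped, and 23 altered symbols, which were replaced by way of the gene identifier. Every mouse's column was used. Strand was not given in the sources used here, and reads carry no molecular identifiers.

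From these counts, CPM were computed with TMM factors (0.942 to 1.04 over the 28 mice), genes were filtered with filterByExpr, which removed 9, and the 4 groups were fitted with the quasi-likelihood test of edgeR 4.0.16 in R 4.3.3, with no covariate. SE values are those of the fitted log2 contrast, and adjusted p-values are by Benjamini-Hochberg over all genes tested. Alternatives used DESeq2 1.42.0, limma 3.58.1, other scaling and filters, thinned counts, 1 sex, and leaving out each mouse. Leaving out the 3 mice that stood apart was added after seeing the data. The test was checked on simulated counts. Replicates are separate mice: none of 85 pairs within groups held identical values.

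Injury genes were those with an adjusted p under 0.05 in the same direction in both isoforms with 2 Abca1 copies. Named genes are the 15 with the smallest interaction p in each direction, Abca1 and Apoe, the members of each list with the smallest p or the highest level, and the 5 injury genes with the smallest p in each direction, of which a part is printed. Members and lists were chosen with earlier results of these data known. Coordinates and promoters come from RefSeq on GRCm38.p6, which matched 14999 of 15171 genes by identifier. Some named genes are not reported here.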

Additional observations from a re-analysis of the deposited data

Results flagged for a closer look

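In groups of 6 to 8 mice, a mouse was set apart where its gap to the nearest other mouse was large for the range of its group by Dixon's criterion. This held for 19 of 168 groups of values tested, while chance alone sets apart about 1 in 20. No cause was examined.

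Injured E4/Abca1+/- replicate 8 had thalamus and subcortex markers at 766 CPM (next 276), hippocampal markers at 460 CPM (next 717), cortical markers at 1060 CPM (next 849). In the same group, B and plasma cell markers reached 354 CPM (next 40.6), erythrocyte markers 4.77 CPM (next 2.36) and Gm10125, an unnamed gene model, 1.18 CPM (next 0.707). Rbfox2 was as low as 263 CPM (next 294), and the mean log2(CPM + 1) of the injury-lowered genes as high as 6.73 (next 6.47).

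Among sham E4/Abca1+/- mice the mean of the injury-raised genes reached 3.78 (next 3.52), that of the lowered genes was as low as 6.68 (next 6.78), neutrophil markers reached 9.29 CPM (next 6.32), Miip 11.8 CPM (next 8.69) and Lonrf2 246 CPM (next 223).

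Among injured E3/Abca1+/- mice the highest sums were 1904 CPM for choroid plexus and ependyma markers (next 55.2), 67.3 CPM for B and plasma cell markers (next 33.6) and 46.4 CPM for neutrophil markers (next 26.0), and the smallest library had 12165681 counts (next 18106850). Among sham E3/Abca1+/- mice Rps6ka1 reached 24.1 CPM (next 16.6), and B and plasma cell markers were as low as 13.2 CPM (next 19.7).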

How the results depend on the processing

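No paired analysis was possible because the labels number mice by animal and give the groups no shared replicate numbers. Of the results that answer a comparison, 169 alternative values were labelled the same as the main value and 12 as moved. A count was labelled the same when equal to the main count or within a fixed ratio of it. The main interaction counts were 0, so every fit that also called 0 genes was labelled the same. A list median was labelled the same when it lay within the pooled within-group SD. For the raised genes this SD was 0.148, beside a median of 0.20, which is a wide margin. Neither label checks a direction or a threshold. For the interaction, edgeR called 0 genes in either direction and DESeq2 called 2 higher and 1 lower; at an unadjusted p the counts were 611 and 350, and thinning to the shallowest library gave 426 and 388. Leaving out single mice gave 0 genes higher and 0 to 1 lower, the 1 being Serpina3n (-1.91, edgeR adjusted p = 0.0336) without injured E4/Abca1+/- replicate 3. The count of genes higher at an unadjusted p was 383 without sham E3/Abca1+/- replicate 2, and that of genes lower lay between 539 and 676 without injured E3/Abca1+/- replicate 1, sham E4/Abca1+/- replicates 1 and 2, or injured E4/Abca1+/- replicates 3, 4, 6, 7 and 8. Of the 1254 raised genes, 159, 154, 156 and 139 in place of 243 were higher at an unadjusted p without sham E3/Abca1+/- replicate 2, injured E3/Abca1+/- replicate 1 and injured E4/Abca1+/- replicates 1 and 3. Their median interaction was 0.13 to 0.24 when single mice were left out and 0.37 over the 366 genes with a stricter threshold. The median of the lowered genes was -0.10 without the 3 mice that stood apart, and 0.17 over the 3 genes with the stricter threshold. Thinning lowered the genes called between E4/Abca1+/- and E3/Abca1+/- mice from 763 to 348 in shams and from 888 to 520 after TBI. The difference between 1 and 2 Abca1 copies held 673 genes, and that between the sexes 367, at an unadjusted p. Without the 3 mice, the interaction changed sign for C4b (0.20), Hmgcs1 (-0.083), Gfap (0.18) and Lcn2 (0.34); leaving out single mice gave -0.22 to 0.12, -0.038 to 0.050, -0.21 to 0.072 and -2.68 to 0.069. The cause was not tested. The median SE of an interaction was 0.116 on the log2 scale, and genes near 3 counts in a library cannot be compared.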
